A study of Mus musculus with 24 samples.

Results

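The vitamin D receptor gene Vdr, the retinoid X receptor genes Rxra and Rxrb and the retinoic acid receptor genes Rara, Rarb and Rarg were followed in the neural retina and eye cup of mice with elevated PRDM13. These 6 genes were taken by name from the 56748 genes of the deposited table, and the group was chosen by the level of Vdr, which was higher in PRDM13-OE retinas than in wildtype retinas when both received doxycycline (dox). The levels of the 6 genes in that contrast, and of Vdr in every retina given dox, are therefore descriptions, given with no p-value. In GRCm39, the genes as the table gives them are Vdr (ENSMUSG00000022479, chr15:97752306-97808511, minus strand), Rxra (ENSMUSG00000015846, chr2:27566452-27652969, plus strand) and Rxrb (ENSMUSG00000039656, chr17:34250786-34257373, plus strand). The retinoic acid receptor genes are Rara (ENSMUSG00000037992, chr11:98818644-98865768, plus strand), Rarb (ENSMUSG00000017491, chr14:5650540-6038924, plus strand) and Rarg (ENSMUSG00000001288, chr15:102143373-102165952, minus strand). Rxrg, the remaining retinoid X receptor gene, was counted among the other receptors that pair with retinoid X receptors.

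The PRDM13-OE mice were heterozygous for a Rosa26 knock-in in which the ubiquitous EF-1α promoter drives the dox-dependent activator rtTA and a TRE3G promoter drives human PRDM13, so that PRDM13 can be induced in any tissue. They were compared with wildtype littermates on the C57BL/6J background. Mice of either genotype were left untreated or drank water with 2 mg/mL dox and 10% sucrose for 72 hours, beginning at postnatal day 28 (P28). The untreated groups therefore lacked both dox and sucrose. RNA sequencing covered 24 libraries in 8 groups of 3, each group being the neural retina or the remaining eye cup (RPE, choroid and sclera) of 3 mice. The groups were not matched for sex by Xist, which females express, with 2165 to 3520 counts in PRDM13-OE retinas with dox. It had 0 counts in the retinas of wildtype mouse 3 with dox, untreated PRDM13-OE mouse 3 and untreated wildtype mice 1 and 3. The remaining retinas had 1730 to 4873 counts. Sex therefore cannot be fully told apart from genotype or dox in comparisons with PRDM13-OE mice given dox.

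These receptors are ligand-activated transcription factors. VDR binds the active form of vitamin D, calcitriol, and the retinoic acid receptors bind retinoic acid, and each of them contacts DNA as a pair with a retinoid X receptor. Such pairs recognize a direct repeat of a short hexamer. The spacing between the repeats helps decide which pair binds, with a spacing of 3 bases preferred by VDR and a spacing of 5 bases typical for retinoic acid receptors. In the eye, retinoic acid patterns the developing retina, and another form of vitamin A, retinal, is the chromophore of the visual pigments.

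All members carry the same type of DNA-binding zinc finger. The stretch of coding sequence around the contact residues of the first finger is shown for each gene to make the relatedness of the family visible, with capitals at the 19 of 30 bases that are identical in all 6 genes.
Vdr: TGtGAaGGcTGcAAGGGtTTcTTCaggcGg
Rxra: TGtGAgGGcTGcAAGGGcTTcTTCaagaGg
Rxrb: TGcGAgGGcTGcAAGGGtTTcTTCaagcGc
Rara: TGtGAgGGcTGtAAGGGcTTcTTCcgacGa
Rarb: TGcGAgGGgTGcAAGGGcTTtTTCcgcaGa
Rarg: TGtGAaGGcTGcAAGGGcTTcTTCagacGc
Against Vdr, the stretch matched at 27 bases in Rarg, 26 in Rxra, 26 in Rxrb, 24 in Rara and 21 in Rarb. In GRCm39 the stretch lay within exon 4 of Rxra (chr2:27631799-27631828, plus strand) and of Rxrb (chr17:34253019-34253048, plus strand). It was interrupted by an intron in the other genes. In Vdr it joined exons 3 and 4 (chr15:97774732-97782700, minus strand), and in Rarg exons 2 and 3 (chr15:102149620-102150285, minus strand). In Rara it joined exons 3 and 4 (chr11:98857307-98858885, plus strand), and in Rarb exons 2 and 3 (chr14:5921335-5960702, plus strand). Exons are numbered along the main GENCODE transcript.

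The promoter of Vdr is shown because Vdr is the member whose level differed most with PRDM13 in the retina. The 150 bases before the RefSeq start (GRCm39 chr15:97806178-97806327, minus strand) held 3 copies of GGGCGG, the core of a GC box, given in capitals.
Vdr: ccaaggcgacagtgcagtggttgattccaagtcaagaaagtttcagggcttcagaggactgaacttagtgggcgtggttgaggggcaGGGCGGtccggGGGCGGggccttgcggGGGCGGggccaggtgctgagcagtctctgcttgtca
GGGCGG is common. On either strand it was found in 35.7% of the 32851 RefSeq windows of 300 bases around gene starts, and in windows of 5 of the 6 members, all except Rarb.

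Direct repeats of the receptor hexamer, searched on either strand as AGGTCA or as its variants AGTTCA and also GGTTCA and also GGGTCA, were rare in the same windows. With a spacing of 5 bases they were present in 0.0974% of windows, and Rarb was the only member with one. Among the 55 pathway genes with a window, it was present only in that of Cyp26a1, which encodes a retinoic acid-degrading enzyme. These repeats are shown in capitals with the bases around them, since both genes are textbook retinoic acid targets.
Rarb: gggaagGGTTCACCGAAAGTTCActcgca
Cyp26a1: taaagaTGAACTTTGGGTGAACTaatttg
The Rarb repeat (chr14:5894228-5894256, plus strand) lay in the untranslated part of the first exon of the main GENCODE transcript. The Cyp26a1 repeat (chr19:37686218-37686246, plus strand, read on the opposite strand) lay just before the first exon of the main GENCODE transcript. Repeats spaced by 3 bases were present in 0.0396% of windows and in none of the members' windows.

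Library depth was similar across the study, with 15825059 to 24908314 counts per library. The human transgene has no row in the table of mouse genes. With dox, the mouse gene Prdm13 was at 53.0 to 60.3 CPM (counts scaled to a library of 1000000 with edgeR's TMM factors) in PRDM13-OE retinas. It was at 47.1 to 50.5 CPM in wildtype retinas with dox, without overlap. Untreated PRDM13-OE retinas, at 47.7 to 54.7 CPM, overlapped both of these groups. Untreated wildtype retinas were at 44.8 to 52.6 CPM. In the authors' qPCR, mouse Prdm13 did not change at this duration of dox. Whether transgene reads were counted for mouse Prdm13 was not tested. Gm13394, the gene used to check genotype labels, was at 204 to 525 CPM in 10 of the 12 PRDM13-OE libraries and at 2.11 to 7.54 CPM in all wildtype libraries. Both libraries labelled untreated PRDM13-OE mouse 1 were at the wildtype level (4.84 CPM in the retina and 3.12 CPM in the eye cup), which goes against their label. Values without them are given beside the Vdr results, and for other genes where leaving them out changed the call or the direction of a value given here. Summed rod markers were lower in PRDM13-OE retinas with dox (46100 to 52600 CPM) than in the other retinas (63000 to 69100 CPM), as were summed cone markers (724 to 799 CPM against 1220 to 1470 CPM). The part of cones in the values of Thrb and Rxrg, which cones express, was not tested. Blood markers were also lower there (0.706 to 1.19 CPM against 21.6 to 77.9 CPM). Lens crystallins were high in wildtype retinas with dox from mouse 1 (11200 CPM) and mouse 2 (4670 CPM). They went largely with genotype, at 3.50 to 28.1 CPM in PRDM13-OE retinas with dox and 5.55 to 119 CPM in untreated ones. Wildtype retinas were at 115 to 11200 CPM with dox and 188 to 876 CPM untreated. A fit with the crystallin level as a covariate therefore cannot clearly tell lens content and genotype apart. In bulk tissue, fewer cells of a type and less RNA per cell cannot be told apart.

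Vdr was the lowest of the 6 receptor transcripts in the untreated wildtype retina and rose above 2 CPM only in PRDM13-OE retinas with dox. It was at 4.41, 2.75 and 4.26 CPM in the 3 PRDM13-OE retinas with dox, from 75, 50 and 79 counts. The wildtype retinas with dox were at 0.972, 0.967 and 1.01 CPM, from 17, 18 and 17 counts. All PRDM13-OE libraries lay above all wildtype libraries, by a log2-fold change of 1.94 (SE 0.26, n = 3 against 3), which is 3.84-fold. Untreated PRDM13-OE retinas were at 0.797, 0.818 and 0.492 CPM, and untreated wildtype retinas at 0.778, 0.655 and 0.286 CPM. Against untreated PRDM13-OE retinas, Vdr with dox was higher by 2.42 on the log2 scale (SE 0.31), and by 2.51 (SE 0.36) without the library labelled untreated PRDM13-OE mouse 1. These comparisons share the PRDM13-OE retinas with dox, so they are not independent of each other.

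**Figure D1:**
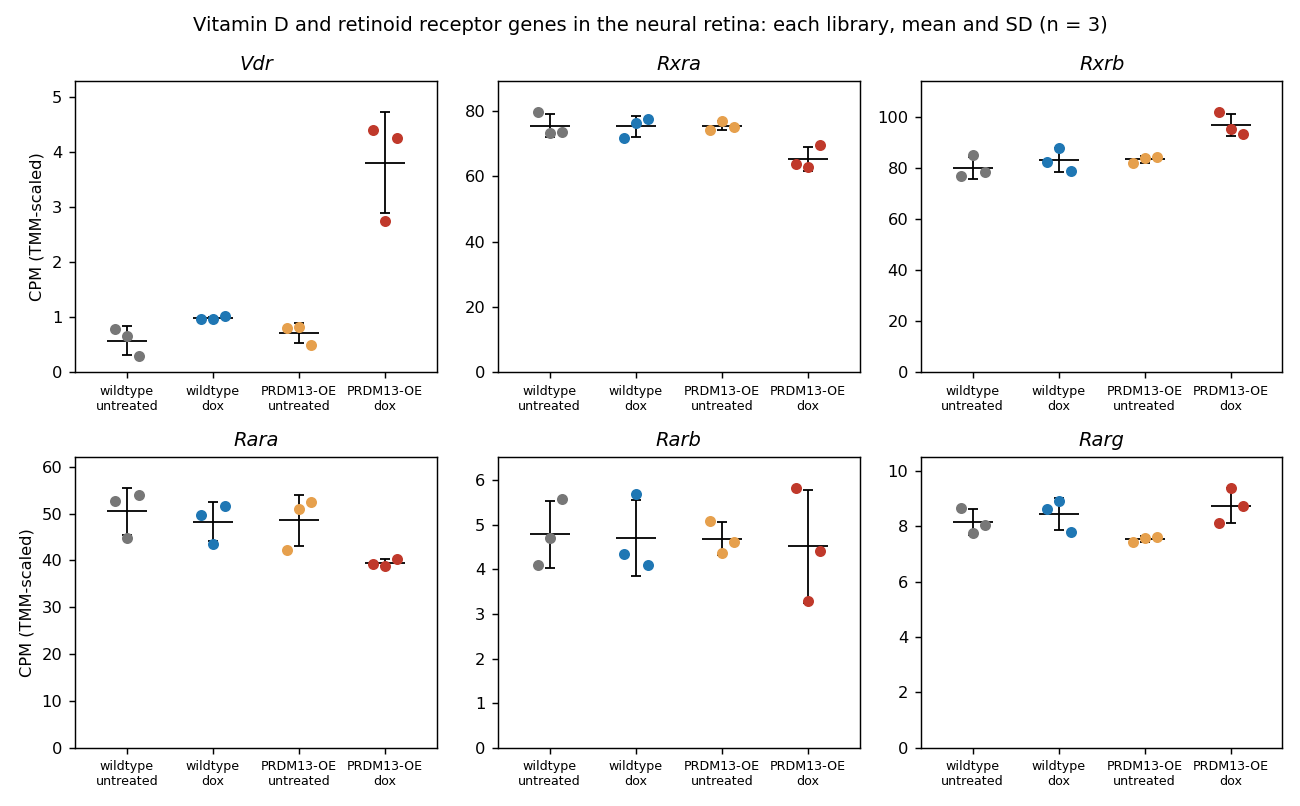
CPM (vertical axis, TMM-scaled, from 0) of each receptor gene in the 12 retinas, by genotype and treatment. Points are libraries and bars are the mean and SD of 3. Vdr reaches 2.75 to 4.41 CPM in PRDM13-OE retinas with dox and stays at or below 1.01 CPM in the other 9, while the other receptors move by far less relative to their level.

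Without dox, no difference in Vdr between genotypes was detectable. Vdr was 0.30 higher on the log2 scale in untreated PRDM13-OE than in untreated wildtype retinas (SE 0.47, edgeR adjusted p = 0.995), and 0.21 higher (SE 0.54, adjusted p = 0.966) without the library labelled PRDM13-OE mouse 1. The values of the 2 groups overlapped. At 6 to 16 counts per untreated library, only a large difference could have been seen. In wildtype retinas, Vdr was 0.78 higher with dox than without (SE 0.41). The 3 values with dox lay above the 3 without, but the counts of the groups (17 to 18 against 6 to 16) were close. The interaction, that is how much more Vdr rose with dox in PRDM13-OE than in wildtype retinas, was 1.64 on the log2 scale (SE 0.50), and 1.74 (SE 0.55) without the library labelled untreated PRDM13-OE mouse 1.

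The binding partners of VDR were abundant in every retina and differed little. Rxrb, on chromosome 17, was at 102, 95.3 and 93.6 CPM in PRDM13-OE retinas with dox and at 82.6, 88.1 and 78.9 CPM in wildtype retinas with dox. All 3 PRDM13-OE values were higher, with a log2-fold change of 0.22 (SE 0.06). Rxra, on chromosome 2, went the other way, at 63.8, 62.9 and 69.7 CPM against 71.8, 76.5 and 77.7 CPM, with a log2-fold change of -0.21 (SE 0.06). The PRDM13-OE retinas were all lower, without overlap. The differences in Rxra and Rxrb were of similar size and opposite direction.

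Among the retinoic acid receptors, Rara was lower and the others did not differ beyond their spread. Rara was at 39.3, 38.8 and 40.3 CPM in PRDM13-OE retinas with dox and at 49.6, 43.6 and 51.7 CPM in the wildtype ones. Its log2-fold change was -0.29 (SE 0.07) with no overlap. Rarb, itself a textbook retinoic acid target, was at 5.83, 3.30 and 4.42 CPM against 4.34, 5.69 and 4.11 CPM. Its groups overlapped, with a log2-fold change of -0.07 (SE 0.22). Rarg was at 8.12, 9.39 and 8.73 CPM against 8.63, 8.91 and 7.80 CPM, again overlapping, with a log2-fold change of 0.05 (SE 0.12). Of the exon bases of Rarb's main transcript, 1797 of 3396 overlap exons of Top2b on the opposite strand. Top2b was at 286 to 344 CPM in these retinas, and whether reads were counted by strand is not given in the sources used here, so Rarb values may hold Top2b reads.

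Of the 6 receptors, 1 (Vdr) was past an adjusted p of 0.05 with a log2-fold change past 1 in PRDM13-OE against wildtype retinas with dox, the rule used here for a called gene, where 2.41% of the 20560 genes tested were called. At any fold, 2 were higher (Vdr and Rxrb) and 2 lower (Rxra and Rara), where 12.5% of genes passed. Nothing is read from these counts, since the group was put together on this contrast. With library sizes in place of TMM factors the median of all genes moved from 0.01 to 0.09. The values became -0.12 for Rxra, -0.21 for Rara and 0.31 for Rxrb, with no change of direction, and Rarb changed sign to 0.02. With the crystallin level as a covariate the log2-fold change of Vdr was 1.66 (SE 0.58), and no member was past both cutoffs.

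Against untreated PRDM13-OE retinas, none of the other 5 receptors passed the test in edgeR with TMM factors. With library sizes Rxrb passed (0.28, SE 0.06, adjusted p = 0.0216). The log2-fold change was -0.21 for Rxra (SE 0.06, adjusted p = 0.102), 0.21 for Rxrb (SE 0.06, adjusted p = 0.0713) and -0.30 for Rara (SE 0.09, adjusted p = 0.0754). For each of these, the 3 retinas with dox lay outside the range of the 3 untreated ones. Rarg (0.21, SE 0.13, adjusted p = 0.519) and Rarb (-0.06, SE 0.22, adjusted p = 0.941) were further from passing. By edgeR, 0 of these 5 were past an adjusted p of 0.05, where 5.00% of the 20603 genes were, and 3 of the 5 had an unadjusted p under 0.05. DESeq2 had 1, Rara. Vdr, described here without a test, was past both cutoffs, as were 1.04% of all genes, and nothing is read from that. Without the library labelled untreated PRDM13-OE mouse 1, Rara was at -0.39 (SE 0.07, adjusted p = 0.00679).

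No response of these 5 receptors to dox alone or to the knock-in alone was detectable. In wildtype retinas with dox against untreated wildtype retinas their log2-fold changes lay between -0.06 and 0.05, and 0 of 5 were called by edgeR or DESeq2, where 0.00485% of 20631 genes were called, and 0 had an unadjusted p under 0.05. In untreated PRDM13-OE against untreated wildtype retinas, 0 of the 6 members were called by either tool, where 0 (0%) of 20668 genes were called, and 0 had an unadjusted p under 0.05. Beside Vdr, Rarg was the furthest from 0 there, at -0.11 (SE 0.14), followed by Rxrb at 0.06 (SE 0.07). Rara went from -0.05 to 0.04 without the library labelled untreated PRDM13-OE mouse 1. For the interaction of genotype and dox, 0 of these 5 were called by either tool, where 0.870% of 22538 genes were called. Rxra alone of the 5 had an unadjusted p under 0.05 (-0.20, SE 0.09, adjusted p = 0.302). Vdr, described here without a test, was not past the adjusted p cutoff by edgeR either, and nothing is read from that.

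**Figure D2:**
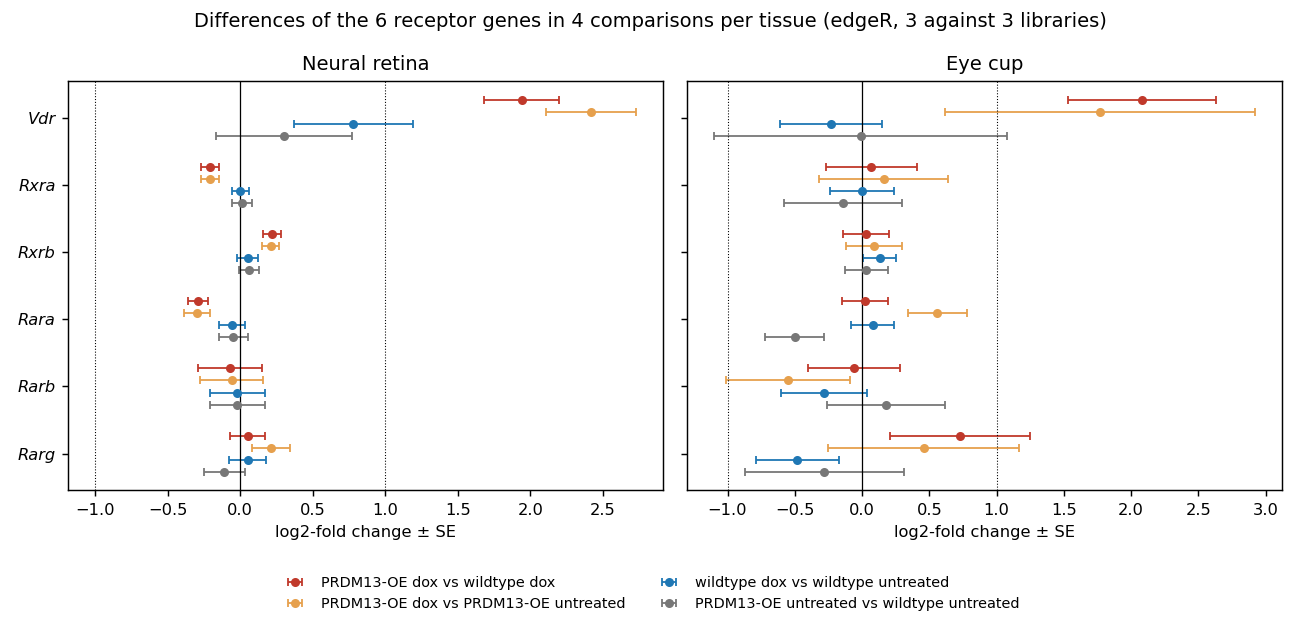
Log2-fold change (horizontal axis) with its SE for the 6 receptor genes in 4 comparisons of the retina (left) and of the eye cup (right), from edgeR with 3 against 3 libraries. Dotted lines mark a log2-fold change of 1 in either direction. In the retina Vdr alone lies past 1, in both comparisons with PRDM13-OE retinas given dox. In the eye cup the SEs are wider, up to 1.15 for Vdr.

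Per length, the receptors fell into the same order in untreated wildtype and PRDM13-OE retinas with dox. On the FPKM scale, which divides by gene length, Rxrb was highest in untreated wildtype retinas at 18.5 ± 0.760 (SD, n = 3). Rxra (11.0 ± 0.613) and Rara (10.6 ± 1.18) followed with overlapping ranges. Rarg (1.75 ± 0.118), Rarb (0.832 ± 0.133) and Vdr (0.0928 ± 0.0415) came next, each below the gene before it without overlap. In PRDM13-OE retinas with dox, Vdr was at 0.609 ± 0.148 FPKM and overlapped Rarb (0.775 ± 0.220), the next lowest.

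Genes whose level was most alike to that of Vdr over the 12 retinas were Pgrmc2, a membrane progesterone receptor component (Pearson r = 0.97), the lncRNA 4930554H23Rik (r = 0.96), the clathrin adaptor gene Ap2m1 (r = 0.96), the phosphatase gene Ppef1 (r = 0.95) and the water channel gene Aqp4 (r = 0.95). The likeness was taken on log2(CPM + 1) among 14853 genes with a mean of at least 1 CPM, and the 12 points share 3 mice per group. Vdr stood above 1.01 CPM only in PRDM13-OE retinas with dox, the difference on which it was chosen. Its likenesses largely follow that step, and nothing further is read from them. Rxra was most like the lncRNA A930001M01Rik (r = 0.96) and the semaphorin receptor gene Plxna2 (r = 0.96). Rxrb was most like Rpp25l (r = 0.96) and Kctd2 (r = 0.95), and Rara most like the coactivator gene Ppargc1b (r = 0.96) and the transporter gene Abcg4 (r = 0.95). Rarb and Rarg had weaker likenesses, led by Riox2 (r = 0.86) and Sox2ot (r = 0.87). No member was among the closest genes of another member.

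The wider pathway was described by 73 genes that supply or degrade the ligands, pair with retinoid X receptors, act as coregulators or are known targets, of which 60 were tested in PRDM13-OE against wildtype retinas with dox. At an adjusted p under 0.05 (edgeR, over all 20560 genes), 5 were higher and 8 lower, where 12.5% of all genes passed, and 3 of the 13 were also past a log2-fold change of 1, as were 2.41% of all genes. These 3 all belong to the supply and breakdown of retinoic acid, of whose 19 genes 17 were tested. The list's median was 0.00, beside 0.01 for all genes.

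Aldh1a3, which encodes an enzyme that makes retinoic acid, fell by 1.67 on the log2 scale (SE 0.36, adjusted p = 0.0102). It was at 0.294, 0.769 and 0.485 CPM in PRDM13-OE and at 1.77, 1.77 and 1.43 CPM in wildtype retinas with dox, from 5 to 14 against 24 to 33 counts. It passed in all 6 fits that left out 1 library, but not with all 12 retinas in one fit (-1.66, adjusted p = 0.0660) or with the crystallin level as a covariate (-0.37, adjusted p = 0.884). Untreated retinas spread widely, from 0.409 to 2.39 CPM in PRDM13-OE and from 0.655 to 2.14 CPM in wildtype mice, and the range of the untreated PRDM13-OE retinas overlapped that of the treated ones.

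Fabp5, which encodes a carrier of retinoic acid and fatty acids, fell by 1.39 (SE 0.39, adjusted p = 0.0378). It was at 22.1, 20.8 and 17.8 CPM in PRDM13-OE and at 97.4, 39.1 and 22.3 CPM in wildtype retinas with dox. The 2 high values are those of the crystallin-rich wildtype retinas from mice 1 and 2. Without wildtype mouse 1 the log2-fold change was -0.61 (adjusted p = 0.0639), and the call was also lost without any single PRDM13-OE library (-1.47 to -1.31) or by DESeq2 (adjusted p = 0.128). Rbp4, which encodes the retinol carrier of plasma, rose by 1.17 (SE 0.32, adjusted p = 0.0357). It was at 1.71, 1.54 and 1.24 CPM against 0.572, 0.859 and 0.536 CPM, from at most 29 counts. Its call was lost without any 1 of the PRDM13-OE libraries or without wildtype mouse 1 or 3 (1.05 to 1.28) and by DESeq2 (adjusted p = 0.0765). With the crystallin level as a covariate neither was called, and Fabp5 changed sign to 0.35 (adjusted p = 0.724). Of the 13 pathway genes that passed at any fold, 2 still passed with this covariate, Dhrs3 (0.53, adjusted p = 0.0131) and Calb1 (-0.55, adjusted p = 0.0366). Rarres2 changed sign to 0.14 (adjusted p = 0.921) and the others kept their direction.

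Smaller changes that passed at any fold touched the other lists. Of the 10 tested retinoic acid receptor targets, 2 rose and 2 fell, where 12.5% of all genes passed in either direction. Dhrs3, which encodes an enzyme that turns retinal back to retinol, rose by 0.43 (SE 0.05, adjusted p = 2.8e-04) and Nrip1, a corepressor gene, by 0.35 (SE 0.07, adjusted p = 0.00780). The retinol uptake gene Stra6 fell by 0.43 (SE 0.11, adjusted p = 0.0263), and Rarres2 fell by 0.93 (SE 0.25, adjusted p = 0.0314). The list's median was 0.22 beside 0.01 for all genes. Cyp26a1, which holds the same kind of repeat as Rarb, was at 4.17 ± 0.769 against 3.54 ± 0.658 CPM (SD, n = 3), a log2-fold change of 0.23 (SE 0.21, adjusted p = 0.544). Dhrs3 passed in all 6 fits that left out 1 library. Nrip1 passed in 5 of 6, missing without PRDM13-OE mouse 2. Stra6 passed in 3 of 6 and Rarres2 in 1 of 6. With all 12 retinas in one fit neither Stra6 (adjusted p = 0.404) nor Rarres2 (adjusted p = 0.0535) passed, and with library sizes Stra6 did not (adjusted p = 0.0578).

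Of 14 known vitamin D receptor targets, 8 were tested by edgeR in the retina, of which 0 rose and 3 fell at any fold, where 1030 of all 20560 genes rose and 1545 fell, and their median was -0.37 beside 0.01 for all genes. Calb1, which encodes the calcium-binding protein calbindin, fell by 0.35 (SE 0.07, adjusted p = 0.00673) and passed without each library in turn. Spp1 fell by 0.39 (SE 0.10, adjusted p = 0.0275) and the thrombomodulin gene Thbd by 0.78 (SE 0.23, adjusted p = 0.0466), which passed in 3 and 1 of 6 such fits. With library sizes Calb1 still passed (adjusted p = 0.0298), whereas Spp1 (0.0700) and Thbd (0.0601) did not. Calbindin is also a marker of horizontal and amacrine cells and thrombomodulin of endothelium. Summed amacrine markers were at 1230 to 1260 CPM in PRDM13-OE and 1360 to 1440 CPM in wildtype retinas with dox, and their part in the fall of Calb1 was not tested. Summed endothelial markers were at 165 to 187 CPM in PRDM13-OE and 335 to 351 CPM in wildtype retinas with dox, and their part in the fall of Thbd was not tested. Cyp24a1, the vitamin D-degrading enzyme that VDR induces most strongly, had 0 counts in all 6 retinas with dox, which allows up to 3 counts per library.

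**Figure D3:**
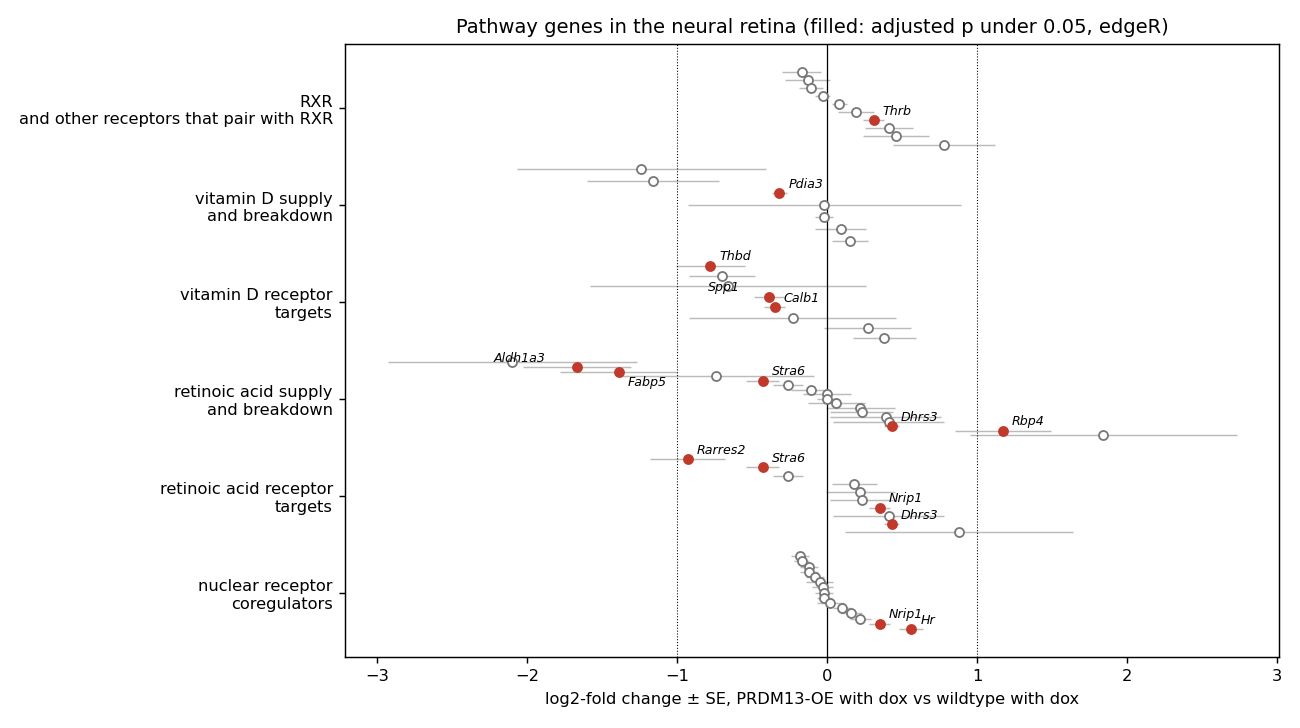
Log2-fold change with its SE (horizontal axis) of the tested pathway genes in PRDM13-OE against wildtype retinas with dox, by list (vertical axis). Filled points passed an adjusted p of 0.05 in edgeR, and dotted lines mark a log2-fold change of 1 in either direction. Aldh1a3 and Fabp5 lie below -1 and Rbp4 above 1, while the filled points of the vitamin D receptor targets all lie below 0.

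Of the 15 coregulators, all tested, 2 rose at any fold and 0 fell by edgeR, where 12.5% of all genes passed in either direction. The 2 were Nrip1 and Hr, the gene of the hairless corepressor, which binds VDR. Hr was at 168, 169 and 177 CPM in PRDM13-OE and at 110, 106 and 132 CPM in wildtype retinas with dox, a rise of 0.56 (SE 0.08, adjusted p = 6.1e-04) that passed without each library in turn but not with the crystallin covariate (0.32, adjusted p = 0.128). It also rose by 0.43 against untreated PRDM13-OE retinas (SE 0.06, adjusted p = 5.8e-04), which were at 121, 130 and 131 CPM. The abundant corepressor gene Ncor1 was at 218 against 236 CPM (log2-fold change -0.12, SE 0.06, adjusted p = 0.188). Of the 13 other receptors that pair with retinoid X receptors, 10 were tested and 1 rose, beside the same 12.5% of all genes. This was the thyroid hormone receptor gene Thrb, by 0.31 (SE 0.07, adjusted p = 0.0190). Thrb did not pass when PRDM13-OE mouse 3 (0.23) or wildtype mouse 1 was left out. Rxrg was at 9.46 against 10.6 CPM (-0.17, SE 0.13, adjusted p = 0.420). Of the 9 genes of vitamin D supply and breakdown, 7 were tested and 1 fell, again beside 12.5% of all genes. This was Pdia3, by 0.32 (SE 0.05, adjusted p = 0.00164), a chaperone gene also described as a membrane receptor for vitamin D.

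Against untreated PRDM13-OE retinas, 6 of 60 tested pathway genes passed at any fold, 3 higher and 3 lower, where 5.00% of all genes did. By edgeR 0 were past a log2-fold change of 1, where 1.04% of all genes were. Beside Hr, the higher ones were Nrip1 (0.41, SE 0.07, adjusted p = 0.00298) and Dhrs3 (0.34, SE 0.07, adjusted p = 0.0117). The lower ones were Pdia3 (-0.26, SE 0.07, adjusted p = 0.0421), Calb1 (-0.33, SE 0.07, adjusted p = 0.0204) and Thbd (-0.92, SE 0.23, adjusted p = 0.0369). Without the library labelled untreated PRDM13-OE mouse 1 the call of Thbd was lost, and the other 5 still passed. Over all 6 fits that left out 1 library, Hr and Nrip1 passed in 6, Dhrs3 in 4, Calb1 in 3, Pdia3 in 2 and Thbd in 1. With library sizes in edgeR, Pdia3 (-0.20, adjusted p = 0.119) and Calb1 (-0.27, adjusted p = 0.0614) did not pass, while Hr, Nrip1, Dhrs3 and Thbd did. Neither the comparison of wildtype retinas by dox nor that of untreated retinas by genotype had any pathway gene past an adjusted p of 0.05.

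In the eye cup, Vdr was again higher in PRDM13-OE mice with dox, but with a wide spread. It was at 25.5, 15.1 and 5.47 CPM in PRDM13-OE and at 2.79, 3.65 and 4.82 CPM in wildtype eye cups with dox. The 3 PRDM13-OE values lay above the 3 wildtype values, although the lowest was close to the highest wildtype value. The log2-fold change was 2.08 (SE 0.55, unadjusted p = 0.00651, edgeR adjusted p = 0.597). By edgeR 0 of the 6 members were called, where 0.0184% of 21758 genes were, and Vdr alone had an unadjusted p under 0.05. DESeq2 called 1 member, Vdr, at 2.07 (adjusted p = 0.0447). Without PRDM13-OE mouse 3, Vdr was also called by edgeR, at 2.46 (adjusted p = 0.0136), and without PRDM13-OE mouse 1 it was at 1.46 (adjusted p = 0.790).

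Keratin and junction genes of surface epithelium, a tissue of the cornea and conjunctiva, moved with Vdr across the eye cups. Among eye cups with dox, the sum of the 8 markers was 30600, 20300 and 6590 CPM for PRDM13-OE mice 1 to 3. The wildtype sums were 6720, 7470 and 13600 CPM. The 2 PRDM13-OE eye cups with the most Vdr were those with the most epithelial signal. In PRDM13-OE mouse 3 the epithelial sum was close to the lowest and Vdr close to the highest wildtype value, and the part of the epithelium in the Vdr difference was not tested beyond the covariate given next. With the epithelial level as a covariate over all 12 eye cups, an alternative chosen after the data were seen, the log2-fold change of Vdr was 1.02 (SE 0.43, adjusted p = 0.551). The markers were nearly absent from the retinas, at 0.874 to 11.1 CPM in sum.

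**Figure D4:**
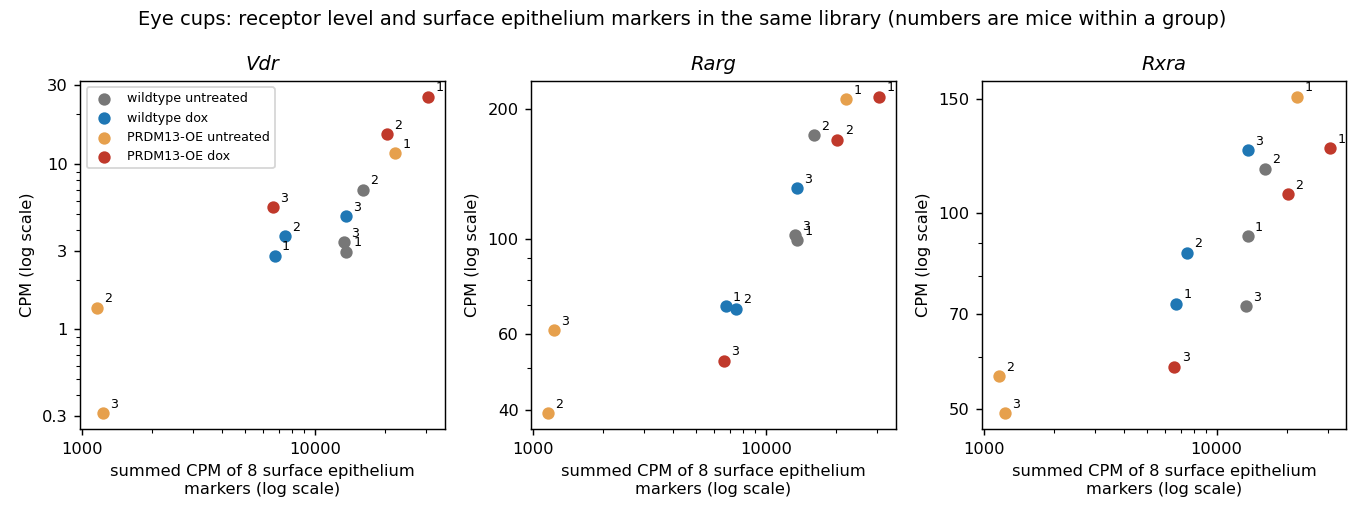
CPM of Vdr, Rarg and Rxra (vertical axes, log scale) against the summed CPM of 8 surface epithelium markers (horizontal axis, log scale) in each of the 12 eye cups. Colours are groups and the small numbers are mice within a group. All 3 genes are low in the eye cups of untreated PRDM13-OE mice 2 and 3, where the epithelial sum is near 1200 CPM. They are high in the eye cup of PRDM13-OE mouse 1 with dox and in that labelled untreated PRDM13-OE mouse 1, a different animal.

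The untreated PRDM13-OE eye cups held both extremes of Vdr outside the PRDM13-OE group with dox. The library labelled mouse 1 was at 11.6 CPM and those of mice 2 and 3 at 1.35 and 0.310 CPM. Their epithelial sums were 22100, 1160 and 1230 CPM. Untreated wildtype eye cups were at 2.95, 7.00 and 3.37 CPM of Vdr, with epithelial sums of 13600, 16100 and 13300 CPM. Against untreated PRDM13-OE eye cups, Vdr with dox was at a log2-fold change of 1.77 (SE 1.15, adjusted p = 0.975), which became 4.12 (SE 0.93, adjusted p = 0.222) without the library labelled mouse 1. Untreated PRDM13-OE against untreated wildtype was at -0.01 (SE 1.09, adjusted p = 1.000), and at -2.34 (SE 0.78, adjusted p = 0.371) without that library. Wildtype eye cups with dox against untreated ones were at -0.23 (SE 0.38, adjusted p = 0.716). The interaction of genotype and dox was 2.02 (SE 1.34, adjusted p = 0.765), and 4.46 (SE 1.02, adjusted p = 0.0955) without that library. With the epithelial covariate these 4 values were 0.53, 0.89, 0.41 and 0.12, with adjusted p of at least 0.606.

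Rarg, the retinoic acid receptor best known from epithelia, varied with the same eye cups. It was at 214, 170 and 52.0 CPM in PRDM13-OE and at 69.6, 68.8 and 131 CPM in wildtype eye cups with dox, with a log2-fold change of 0.73 (SE 0.52, adjusted p = 0.645) and overlapping groups. Untreated PRDM13-OE eye cups were at 211, 39.2 and 61.3 CPM and untreated wildtype eye cups at 99.1, 174 and 102 CPM. With the epithelial covariate Rarg came to a log2-fold change of 0.04 (SE 0.29, adjusted p = 0.981). Rxra had a similar spread, from 49.2 to 151 CPM in untreated PRDM13-OE and from 58.1 to 126 CPM in PRDM13-OE eye cups with dox. It was at 0.07 (SE 0.34, adjusted p = 0.955) against wildtype with dox, and at -0.36 (SE 0.19, adjusted p = 0.606) with the covariate.

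Rxrb and Rara were steadier across eye cups. Rxrb lay between 55.7 and 71.8 CPM in all 12, with a log2-fold change of 0.03 (SE 0.17, adjusted p = 0.962) in PRDM13-OE against wildtype with dox. Rara was at 39.2, 40.2 and 37.8 CPM in PRDM13-OE and at 38.7, 36.3 and 43.4 CPM in wildtype eye cups with dox (0.02, SE 0.17, adjusted p = 0.968). The untreated PRDM13-OE eye cups were lower in Rara, at 21.3, 27.6 and 28.7 CPM, than those with dox and than untreated wildtype eye cups at 41.3, 35.0 and 33.5 CPM. Neither difference passed (0.56, SE 0.22, adjusted p = 0.975, and -0.50, SE 0.22, adjusted p = 1.000). Rarb was low throughout, at 3.59 to 10.2 CPM, with a log2-fold change of -0.06 (SE 0.34, adjusted p = 0.959).

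**Figure D5:**
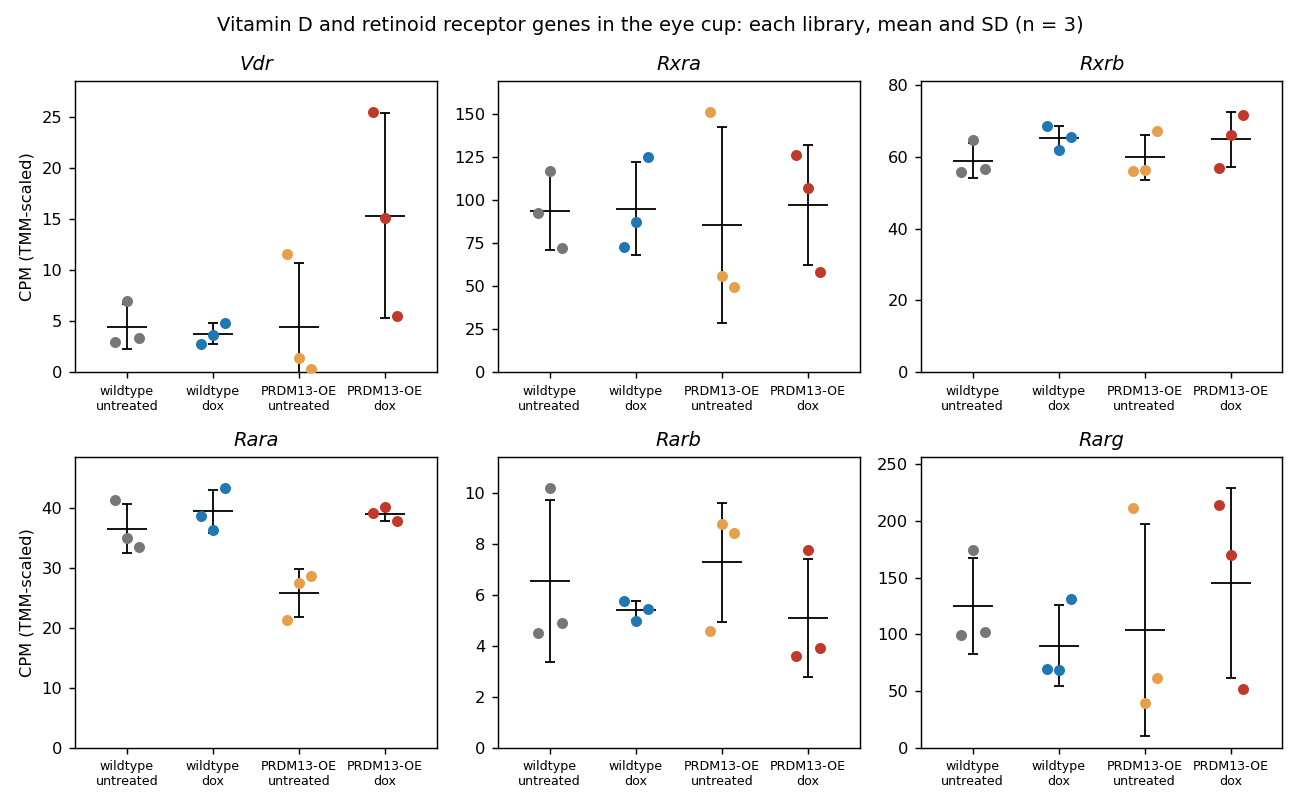
CPM (vertical axis, TMM-scaled, from 0) of each receptor gene in the 12 eye cups, by genotype and treatment. Points are libraries and bars are the mean and SD of 3. The bar of Vdr in untreated PRDM13-OE eye cups is drawn only down to 0. Vdr, Rxra and Rarg spread widely within PRDM13-OE groups, whereas Rxrb stays between 55.7 and 71.8 CPM.

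No member was called by edgeR in any of the other eye cup comparisons. Of 6 members, 0 were called in PRDM13-OE with dox against untreated PRDM13-OE eye cups, where 0.0139% of 21604 genes were called, and 1 had an unadjusted p under 0.05, Rara. The count was also 0 in wildtype with dox against untreated wildtype (0% of 21799 genes called), in untreated PRDM13-OE against untreated wildtype (0% of 21588 genes) and for the interaction (0% of 23837 genes), with 0 members at an unadjusted p under 0.05 in each. DESeq2 called 0 members in all of these. Of the pathway genes, 61 to 67 were tested in the 5 eye cup comparisons and 0 passed an adjusted p of 0.05 in edgeR.

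Cyp24a1 was detected in few eye cups, and most in the 2 with the highest epithelial sums, 30600 and 22100 CPM, whose part in it was not tested. It had 193 counts in PRDM13-OE mouse 1 with dox, 27 in the library labelled untreated PRDM13-OE mouse 1, 7 and 1 in wildtype mice 1 and 3 with dox, and 0 in the other 8. Its log2-fold change in PRDM13-OE against wildtype with dox rests on 1 library (4.55, SE 2.20, adjusted p = 0.597). Crabp2, a retinoic acid carrier gene named here after its values were seen, was at 13.6, 6.84 and 3.76 CPM in PRDM13-OE and at 2.18, 2.95 and 2.91 CPM in wildtype mice with dox (1.64, SE 0.49, adjusted p = 0.597). Untreated wildtype eye cups reached 13.3 CPM.

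Over the 12 eye cups, the genes most like Vdr were the ion channel gene Ano9 (r = 0.97) and BC064078 (r = 0.97), among 15688 genes. Rarg was most like Irak4 (r = 0.99) and Mylip (r = 0.99), and Rxra most like Stk24 (r = 0.97) and Eps8l2 (r = 0.97). The genes closest to Rxrb, Rara and Rarb were Osgepl1 (r = 0.86), Rfxap (r = 0.84) and Ltk (r = 0.91). These likenesses cover libraries that also share their epithelial content.

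The tissues themselves differed most in Rarg and Vdr. In untreated wildtype mice, Rarg was at 8.66, 7.75 and 8.05 CPM in the retina and at 99.1, 174 and 102 CPM in the eye cup, a log2-fold change of retina against eye cup of -4.16 (SE 0.24, adjusted p = 1.1e-05). Vdr was lower in the retina by a log2-fold change of -3.15 (SE 0.50, adjusted p = 0.00116). The values of the tissues did not overlap for either gene. The retina and eye cup of each mouse were not paired in this test. By edgeR, 2 of 6 members were called, both lower in the retina, where 45.2% of the 21979 genes were called. At any fold 3 of 6 passed, where 61.5% of genes did, the third being Rxra (-0.54, SE 0.17, adjusted p = 0.0281). Neither share of the members exceeded that of all genes. Surface epithelium markers were at 13300 to 16100 CPM in these eye cups and at 0.874 to 1.57 CPM in these retinas, and their part in the difference was not tested.

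Rxrb (0.21, SE 0.11, adjusted p = 0.125), Rara (0.23, SE 0.15, adjusted p = 0.211) and Rarb (-0.66, SE 0.34, adjusted p = 0.123) did not pass between the tissues. With library sizes in place of TMM factors, the median of all genes moved from -0.06 to 0.24. Rxrb (0.51, adjusted p = 0.00602) and Rara (0.52, adjusted p = 0.0143) then passed at any fold and Rxra (-0.24, adjusted p = 0.271) did not. Rxra also missed without any 1 of 5 of the 6 libraries, at -0.59 to -0.34, and passed without eye cup 3. The order per length differed accordingly. In untreated wildtype eye cups Rarg led at 31.2 ± 9.72 FPKM (SD, n = 3), above Rxra (15.9 ± 3.61) and Rxrb (15.9 ± 0.934), which overlapped each other. Rara (9.02 ± 1.33), Rarb (1.32 ± 0.610) and Vdr (0.835 ± 0.396) followed, with Rarb and Vdr overlapping.

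Of the pathway genes around the receptors, 51 of 63 tested were past an adjusted p of 0.05 between the tissues, 20 higher and 31 lower in the retina, where 61.5% of all genes passed. Of the 19 genes of retinoic acid supply and breakdown, 14 were called lower and 2 higher in the retina, where 45.2% of all genes were called in either direction. The lower ones included the alcohol dehydrogenase genes Adh7, with 6295 to 6688 counts per eye cup and 0 in each retina, and Adh1 (-10.76, SE 0.43, adjusted p = 3.4e-06), and the retinol-storing gene Lrat (-7.06, SE 0.54, adjusted p = 3.5e-05). Retinoic acid receptor targets were called lower in 8 of 10 and higher in 0, with a median of -3.54. Rxrg was higher in the retina (1.26, SE 0.34, adjusted p = 0.0133), as were Thrb (1.40, SE 0.18, adjusted p = 4.1e-04) and Ppara (1.54, SE 0.42, adjusted p = 0.0140). The vitamin D receptor targets were split, with 3 higher and 4 lower of 8 tested, Calb1 being higher in the retina by 3.01 (SE 0.78, adjusted p = 0.0117).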

How the data were processed

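Neural retina and eye cup RNA of 12 mice was sequenced as polyA libraries. GRCm39 and HISAT2 are named in the submitters' processing notes, and the counting tool and strand setting are not given in the sources used here. The authors deposited unnormalized read counts per gene, FPKM values per gene, and 60 columns of their own 12 comparisons (group means, fold changes, p-values), which were not used.

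The 6 members and the gene lists were chosen with earlier results of these data known. The quasi-likelihood test of edgeR 4.0.16 (R 4.3.3) was run on the counts with TMM factors (genes with at least 10 counts over the libraries compared, Benjamini-Hochberg adjustment over all genes tested). A gene was called where its adjusted p was below 0.05 and its change exceeded 1 on the log2 scale. p-values measure the spread between 3 mice per group, and counts and floors cover counting error only. All members passed the filter. Of each pathway list, called genes, at most 4, were named, or else up to 2 of the most abundant ones. Genes passing at any fold were named after their values were seen. For 1 gene within the rule, the result is not reported here. Retina and eye cup of one number come from 1 mouse, and their deviations correlated at 0.117 to 0.145 in the 3 untreated wildtype pairs. DESeq2 1.42.0, library sizes, other filters, robust fitting, a replicate block, all 12 libraries in one fit, crystallin, rod and epithelial covariates, FPKM in place of CPM, and leaving out each library were tried. The edgeR and DESeq2 fits were tested on simulated data. Promoter windows came from RefSeq (GRCm38.p6) and were located in GRCm39 by exact match. Figures were drawn with matplotlib 3.10.9.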

Additional observations from a re-analysis of the deposited data

Results flagged for a closer look

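Of the receptor genes and pathway genes, 3 differed in their response to dox between PRDM13-OE and wildtype retinas by the interaction of genotype and dox in edgeR over all 12 retinas, and these results were marked because the difference itself passed the test. All 3 are pathway genes, of which 62 were tested. Of all 22538 genes, 269 were higher and 413 lower at the same adjusted p. Hr had an interaction of 0.45 on the log2 scale (SE 0.11, adjusted p = 0.0240), with 168 to 177 CPM in PRDM13-OE retinas with dox and 106 to 132 CPM in the other 9. Thrb had 0.44 (SE 0.12, adjusted p = 0.0495), with 86.7 to 103 CPM in PRDM13-OE retinas with dox, 71.4 to 80.6 CPM in untreated PRDM13-OE, 69.7 to 80.2 CPM in wildtype with dox and 77.8 to 92.8 CPM in untreated wildtype retinas. Its PRDM13-OE values with dox thus overlapped those of untreated wildtype retinas. Thbd had -1.13 (SE 0.29, adjusted p = 0.0403), with 2.29 to 4.58 CPM in PRDM13-OE retinas with dox and 4.48 to 7.05 CPM in the other 9. They passed in 4, 3 and 3 of the 12 fits that left out 1 retina, with values of 0.39 to 0.55, 0.36 to 0.50 and -1.41 to -0.94, and all passed in DESeq2 (adjusted p = 0.00143, 0.00955 and 0.00712). With the crystallin covariate none of the 3 passed (0.32, 0.36 and -1.15, adjusted p = 0.117, 0.208 and 0.0870). Without the library labelled untreated PRDM13-OE mouse 1, the calls of Hr and Thbd were lost.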

How the results depend on the processing

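The number of members past both cutoffs (adjusted p under 0.05 and log2-fold change past 1) was recomputed under each alternative. In PRDM13-OE against wildtype retinas with dox it was 1, Vdr, and it was 4 with no fold change cutoff and 0 with a crystallin covariate. For the retina interaction it was 0, and it was 1, Vdr, with no filter. Vdr was chosen on the retinas with dox, so these retina counts are descriptions and say nothing of stability. In PRDM13-OE against wildtype eye cups with dox it was 0, and it was 1, Vdr, by DESeq2. Leaving out 1 library at a time gave a range of 0 to 1 for the retina interaction (1 without untreated wildtype mouse 3) and 0 to 1 for the eye cups with dox (1 without PRDM13-OE mouse 3). A replicate block on the mouse number changed no count of members called, at 1 in PRDM13-OE against wildtype retinas with dox and 0 in PRDM13-OE against wildtype eye cups with dox. Within a tissue the groups share only a number, since deviations of same-numbered libraries correlated at -0.553 to 0.655. Of the members' own values, 992 moved by less than their SE or kept their call, 59 moved by more, 4 gained and 1 lost a call, and no called member changed direction. Among pathway genes in retinas with dox, Fabp5 and Rarres2 turned direction with the crystallin covariate (0.35 and 0.14). Depth limits Vdr in retinas without PRDM13-OE and dox, where it had 6 to 18 counts.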
